A study of Arabidopsis thaliana with 6 samples.

Results

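The gibberellin receptor genes GID1A, GID1B and GID1C and the F-box genes SLY1 and SLY2 (also called SNE) were followed on 6 Affymetrix ATH1 arrays of Arabidopsis thaliana root tips. They were chosen by gene identity, as the 5 probe sets that the array annotation gives to AT3G05120, AT3G63010, AT5G27320, AT4G24210 and AT5G48170, out of 22746 probe sets that are not array controls. Each gene had 1 probe set, and none of the 5 was shared with another gene in the annotation. The probe set annotated ATSLY1 belongs to another gene and was left out.

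Root tips came from seedlings aged 7 days, raised on sucrose-containing medium in continuous light, and all samples had the Col-0 background. The GA-treated group held 2 arrays of roots labelled as given gibberellin (GA) with a treatment time of 120 min. These samples were also given the source name GA2oxOE1I and the entry "gene knock out", while the untreated samples were given as Col-0 alone, so treatment and plant line cannot be told apart. The 2 other groups, of 2 arrays each, were untreated roots at 120 min and untreated roots at 0 min. The labels name neither the gibberellin nor its dose, and they do not say whether replicates came from separate plantings, so p-values reflect only the spread among these arrays, which may be technical.

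Gibberellin binds a GID1 receptor in the nucleus, and the bound receptor then holds a DELLA protein, a repressor of growth. SLY1 is the F-box subunit that brings this DELLA protein to an SCF ubiquitin ligase for breakdown, and SLY2 is its close homologue that can partly stand in for it. In Arabidopsis seedlings DELLA proteins raise the transcripts of GID1A and GID1B, so that receptor transcripts are part of a known feedback in which gibberellin lowers them.

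Values are MAS5 signals, the linear brightness of a probe set summarised on each array by itself, and levels of different genes are not compared because each probe set has its own scale. The test was limited to probe sets whose mean signal over the 6 arrays exceeded the 40th percentile, a signal of 25.8. GID1A, GID1B and SLY1 passed, with means of 46.8, 107.6 and 131. GID1C (23.4) and SLY2 (24.8) lay just below and are given mainly as signals.

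The first treated array stood apart from the other 5. The 3' to 5' signal ratio of the actin control, which rises when the labelled RNA is short, was 14.8 and 2.52 on GA-treated replicates 1 and 2, with 4.44 and 2.22 for untreated roots at 120 min, and 4.94 and 2.42 at 0 min. The GAPDH and ubiquitin ratios were also highest on GA-treated replicate 1, at 1.75 and 1.80, against ranges of 0.759 to 1.36 and 0.859 to 1.14 on the other arrays. The older GAPDH probe sets gave a ratio of 12.05 on that array, against 1.31 to 3.61 on the others. The older actin and ubiquitin probe sets set it less apart, at 22.75 and 3.59, against 12.92 to 20.99 and 2.055 to 3.09. The 25S ribosomal RNA control read 61.3 on that array, against 812 to 5288. Across the 13647 tested probe sets the difference between replicates in log2(signal + 16) had an SD of 0.61 in GA-treated roots, 0.47 in untreated roots at 120 min and 0.40 at 0 min. Among root markers, PYK10, an abundant root beta-glucosidase, read 4227 to 5511 on all arrays. Of the 10 genes listed for the root tip, PYK10 was the 1 with a named probe set. Meristem markers were thus not checked, and that the tissue was root tips rests on the labels. Of 5 root hair markers 2 had a named probe set, none at 0, and their summed signal was 449 and 527 in GA-treated roots, 560 and 632 in untreated roots at 120 min, and 570.5 and 700 at 0 min. Of these EXPA7, a root hair expansin, read 175 and 277 in GA-treated roots, 274 and 314 in untreated roots at 120 min, and 266 and 391 at 0 min. Of 8 green tissue markers 3 had a named probe set, none at 0, and their summed signal was 216 and 316 in GA-treated roots, 222 and 529 in untreated roots at 120 min, and 281.5 and 319 at 0 min. The part of array quality, of root hair cells and of green tissue in the results below was not tested.

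**Figure D1:**
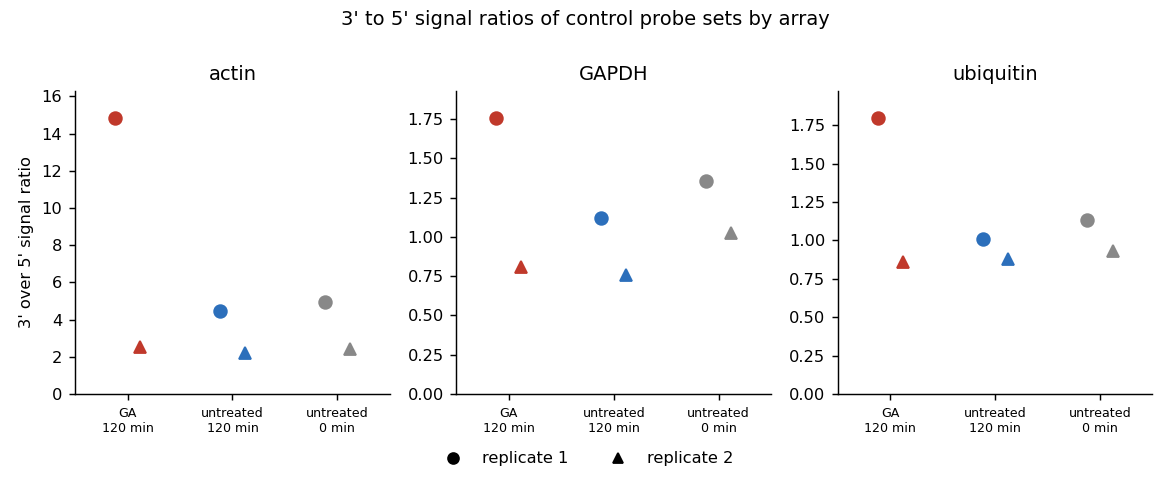
Ratio of 3' to 5' signal of the actin, GAPDH and ubiquitin control probe sets (linear axis from 0) for each array, with circles for replicate 1 and triangles for replicate 2. GA-treated replicate 1 has the highest ratio for all 3 controls (14.8 for actin), and in every group replicate 1 lies above replicate 2.

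GID1B, 1 of the 3 receptors, varied most among the 5 genes. It read 4.87 and 214 on GA-treated replicates 1 and 2, against 101 and 73.05 in untreated roots at 120 min and 88.9 and 164 in untreated roots at 0 min. The treated arrays were the lowest and the highest of the 6, and the 4 untreated arrays lay between them. The 4.87 lies far below the filter of 25.8 and, with no detection call used, is not shown to be above background. No fold of the signal is therefore given against it. Differences in log2(signal + 16) that rest on it, given below, carry the same limit. The untreated replicates differed 1.38-fold at 120 min and 1.84-fold at 0 min. Within its own array GID1B stood at percentile 16.2 of all probe sets on GA-treated replicate 1 and at percentile 86.5 on replicate 2. On the untreated arrays it stood between percentiles 65.2 and 82.2.

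Few probe sets split the treated replicates as far. The difference of replicate 1 minus replicate 2 in log2(signal + 16) was -3.46 for GID1B, and it was more negative for 2 of the 13647 tested probe sets (267565_at and 267516_at, named here because they exceeded GID1B, and without a gene in the annotation used). Of 4090 other probe sets with a mean signal within 1.5 times that of GID1B, 1 was more negative, and their median difference was 0.03. Among 2471 other probe sets that read 142.8 to 321.2 on GA-treated replicate 2, as GID1B did, 6 read under 16 on GA-treated replicate 1, and 1 to 5 did so on the untreated arrays.

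**Figure D2:**
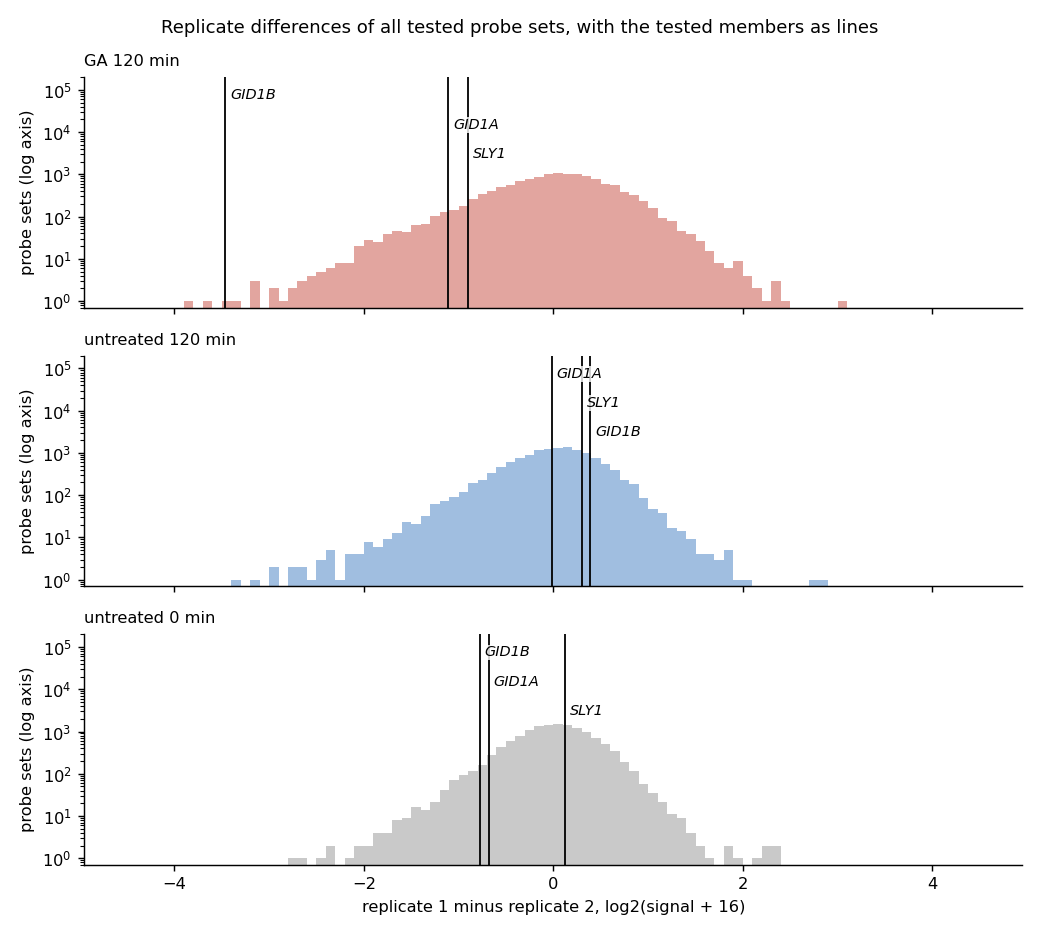
Difference between replicate 1 and replicate 2 in log2(signal + 16) for the 13647 tested probe sets of each group (bars, count on a log axis), with GID1A, GID1B and SLY1 as vertical lines. GID1B lies at -3.46 in the far left tail of the GA-treated group and inside the bulk in untreated roots at 120 min (0.39).

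GID1A, a receptor with close sequence similarity to GID1B and GID1C, split the treated arrays in the same direction over a smaller range. It read 19.7 and 60.9 on GA-treated replicates 1 and 2, with 46.4 and 47.2 for untreated roots at 120 min, and 37.15 and 69.4 at 0 min. GA-treated replicate 1 was the lowest array, and GA-treated replicate 2 lay above both untreated arrays at 120 min but below untreated replicate 2 at 0 min. The untreated replicates at 120 min differed by 1.02-fold, and those at 0 min by 1.87-fold. The treated replicate difference of -1.11 in log2 was exceeded on the negative side by 4.33% of tested probe sets.

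GID1C, the third receptor, read 7.48 and 23.8 in GA-treated roots, against 24.1 and 30 in untreated roots at 120 min and 29.4 and 25.3 at 0 min. It was the 1 gene of the 5 that read lower on both treated arrays than on every untreated array. Treated arrays below both untreated arrays were found for 10.3% of tested probe sets against 120 min and for 15% against 0 min. The share below the untreated arrays of both times was not counted, and GID1C itself was not among the tested probe sets. Its 7.48, with no detection call used, is not shown to be above background. The gap on the second treated array was small, 23.8 against 24.1 on the nearest untreated array. Without GA-treated replicate 1, the 5 other arrays spanned 1.26-fold, the narrowest range of the 5 genes.

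SLY1 read 79.2 and 162 in GA-treated roots, 136 and 107 in untreated roots at 120 min, and 159 and 144 at 0 min. As for GID1B, the treated arrays were the lowest and the highest of the 6. The treated replicates differed by 2.04-fold, against 1.27-fold in untreated roots at 120 min and 1.1-fold at 0 min. A replicate difference more negative than its -0.90 in log2 was found for 6.82% of tested probe sets.

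SLY2, the homologue of SLY1, read 18.5 and 32.4 in GA-treated roots, 19.9 and 18.2 in untreated roots at 120 min, and 34.3 and 25.6 at 0 min. The lowest array was untreated replicate 2 at 120 min, with GA-treated replicate 1 next to it. The treated replicate difference of -0.49 in log2 was the smallest of the 5 genes.

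**Figure D3:**
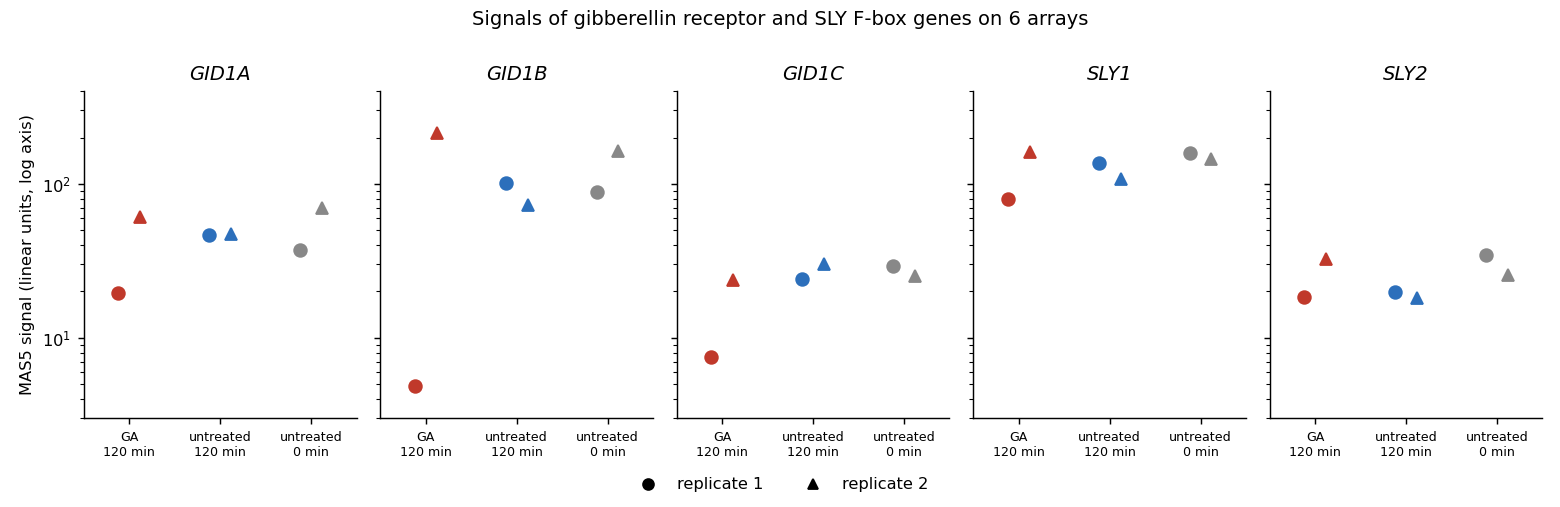
MAS5 signal (log axis) of the 5 genes on each array, in GA-treated roots at 120 min (red), untreated roots at 120 min (blue) and untreated roots at 0 min (grey), with circles for replicate 1 and triangles for replicate 2. GA-treated replicate 1 is the lowest array for GID1A, GID1B, GID1C and SLY1, with GID1B at 4.87, while GA-treated replicate 2 is the highest for GID1B (214) and SLY1 (162).

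GA-treated replicate 1 was thus the lowest of the 6 arrays for 4 of the 5 genes, and it was the lowest for 24.6% of all tested probe sets. Against untreated roots at 120 min, GID1A, GID1B and SLY1 had treated replicate 1 below and treated replicate 2 above both untreated arrays, as did 11.7% of all tested probe sets. Treated arrays on opposite sides of both untreated arrays, in either order, were found for 25.4%.

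The comparison of GA-treated with untreated roots at 120 min holds treatment together with the plant line named on the labels. None of the 3 tested genes passed in limma (0 of 3 at an adjusted p under 0.05, against 0% of all 13647 tested probe sets, and 0 of 3 at an unadjusted p under 0.05, against 1.11%). GID1B averaged 109.5 ± 148 in GA-treated roots and 86.8 ± 19.45 in untreated roots (SD, n = 2 each). On the log2(signal + 16) scale, which understates differences of dim genes, its difference was -0.56 (SE 0.88, 95% interval -2.55 to 1.44, limma adjusted p = 0.999). Its linear mean was thus higher and its log2 mean lower in GA-treated roots, with 1 treated array on each side. Without GA-treated replicate 1, with 1 treated array left, the difference was 1.18, and the second treated array read 2.47-fold the untreated mean. Without GA-treated replicate 2 the difference was -2.29, which rests on the reading not shown to be above background. Each treated array alone thus gave a difference of its own sign. With a pseudocount of 1 in place of 16 the difference of GID1B was -1.29 and that of GID1A -0.42 (limma adjusted p = 1.00 for each).

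GID1A averaged 40.3 ± 29.1 in GA-treated roots and 46.8 ± 0.577 in untreated roots at 120 min (SD, n = 2 each), a log2 difference of -0.26 (95% interval -1.17 to 0.65, limma adjusted p = 0.999). SLY1 averaged 120.4 ± 58.3 and 121 ± 20.6 in the same order, a log2 difference of -0.07 (95% interval -0.78 to 0.64, limma adjusted p = 0.999). The intervals leave room for a range of folds of the signal with the pseudocount added. These are 0.445 to 1.56 for GID1A, 0.583 to 1.55 for SLY1 and 0.171 to 2.71 for GID1B. Folds of the signal itself reach further both down and up, so these values do not bound the transcript levels. Lower and higher transcript levels were thus not told apart. Without GA-treated replicate 1 the differences of GID1A and SLY1 were 0.29 and 0.38, and without GA-treated replicate 2 they were -0.81 and -0.52. All 3 tested genes had a lower log2 mean in GA-treated roots (median -0.26), against 48.7% of all tested probe sets and a median of 0.01.

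When all probe sets were fitted without a filter, GID1C differed by -0.49 (95% interval -1.34 to 0.36) and SLY2 by 0.22 (-0.56 to 1.00) for GA-treated against untreated roots at 120 min (limma adjusted p = 0.999 for each). GID1C averaged 15.6 ± 11.5 in GA-treated and 27.1 ± 4.14 in untreated roots, and SLY2 averaged 25.4 ± 9.78 and 19.05 ± 1.21 in the same order (SD, n = 2 each). In root tips, a bulk tissue, fewer cells of a type and less RNA per cell cannot be told apart.

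**Figure D4:**
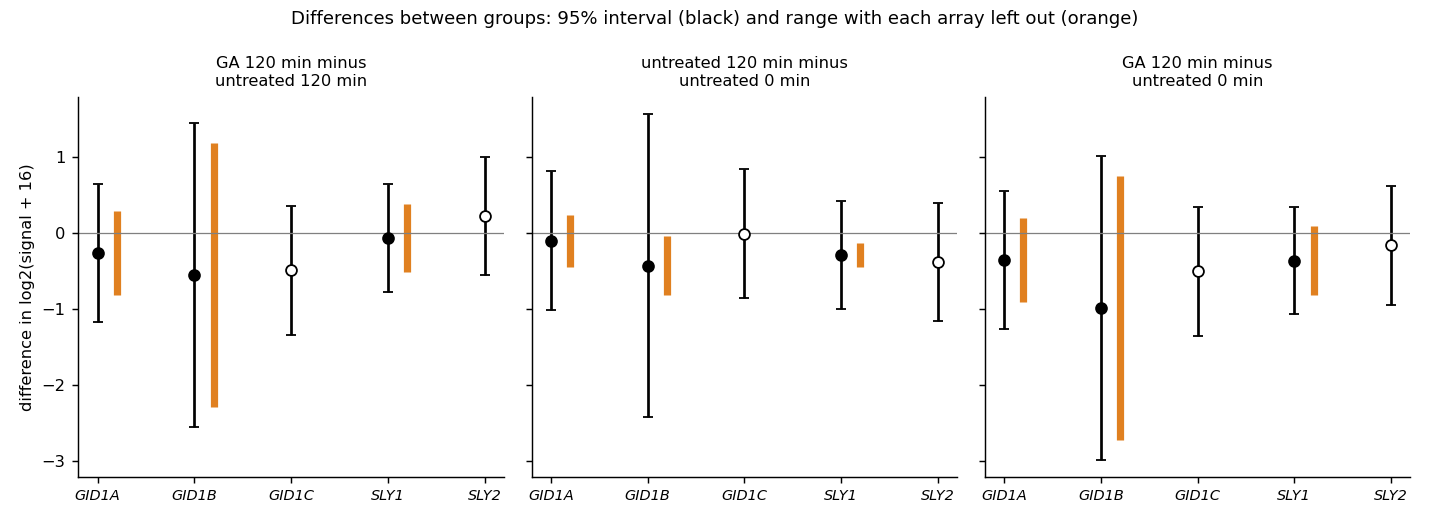
Differences in log2(signal + 16) between groups for the 5 genes with limma 95% intervals (black) and, for the 3 tested genes, the range of the difference with each array left out in turn (orange). Filled points come from the tested set, open points (GID1C and SLY2) from the fit without a filter, and every interval crosses 0, the widest being that of GID1B.

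The comparison of untreated roots at 120 min with untreated roots at 0 min gives the change over time without treatment. SLY1 read 136 and 107 at 120 min, against 159 and 144 at 0 min, and SLY2 read 19.9 and 18.2 against 34.3 and 25.6. For both F-box genes the arrays at 120 min lay below those at 0 min, as they did for 15.8% of tested probe sets. The log2 difference was -0.29 for SLY1 (95% interval -1.0 to 0.41, limma adjusted p = 1) and, in the fit without a filter, -0.38 for SLY2 (-1.16 to 0.40, limma adjusted p = 1), so neither passed. SLY1 stayed negative with each array left out (-0.45 to -0.14).

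The receptors overlapped between the untreated times. GID1B differed by -0.43 (95% interval -2.42 to 1.56) and GID1A by -0.10 (-1.01 to 0.81; limma adjusted p = 1 for each). GID1A turned to 0.24 without untreated replicate 2 at 0 min, the array on which it read 69.4. GID1C differed by -0.01 in the fit without a filter (-0.86 to 0.84). In limma 0 of the 3 tested genes passed, against 0% of all tested probe sets, and 0 had an unadjusted p under 0.05, against 1.08%.

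GA-treated roots at 120 min were also set against untreated roots at 0 min. This comparison holds treatment, the plant line named on the labels and time, and it shares arrays with the other 2. The log2 differences were -0.99 for GID1B (95% interval -2.98 to 1.01), -0.36 for GID1A (-1.27 to 0.55) and -0.36 for SLY1 (-1.07 to 0.34), each with a limma adjusted p of 1. Again 0 of 3 passed, against 0% of all tested probe sets, and 0 had an unadjusted p under 0.05, against 2.58%. Without GA-treated replicate 1, with 1 treated array left, the differences were 0.74, 0.19 and 0.085, in the same order. Without GA-treated replicate 2 they were -2.72, -0.92 and -0.81. With a pseudocount of 1 GID1B differed by -1.78. GID1C, given without a filter, differed by -0.50 (-1.35 to 0.34), with both treated arrays below both arrays at 0 min, and SLY2 by -0.16 (-0.94 to 0.62). On GA-treated replicate 1, the lowest of the 6 arrays for 24.6% of all tested probe sets, all 5 genes read below both arrays at 0 min. On GA-treated replicate 2 GID1B and SLY1 read above both, GID1C below both, and GID1A and SLY2 between them. How many of all tested probe sets took each of these positions was not counted.

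Among the 6 arrays, 4 of the 5 genes shared their lowest array, while the order of the other arrays differed between them. GID1A and GID1B both had untreated replicate 2 at 0 min and GA-treated replicate 2 as their highest pair of arrays. SLY1 and SLY2 shared their highest pair as well, GA-treated replicate 2 and untreated replicate 1 at 0 min. GID1C had its highest signals on untreated replicate 2 at 120 min (30) and untreated replicate 1 at 0 min (29.4), and its signal on GA-treated replicate 2, the highest array of GID1B, was its second lowest.

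Among other genes, those most like each member over the 6 arrays were taken from 7450 tested probe sets with 1 named gene, by Pearson's r of log2(signal + 16), which compares shape and not size. The arrays share their scaling and the offset of the first treated array, and r over so few arrays is a description. For GID1B the closest were AT1G35330 (r = 0.996), THIC, an enzyme of thiamine synthesis (0.990), and AT4G26660 (0.990). AT1G35330 read 49.0 and 60.7 in GA-treated roots, 57.2 and 56.5 in untreated roots at 120 min and 57.4 and 59.3 at 0 min. Its range was far narrower than that of GID1B. THIC read 18.9 and 40.6 in GA-treated roots, 34.5 and 33.3 in untreated roots at 120 min and 33.2 and 41.3 at 0 min. AT4G26660 read 2.38 and 39.1 in GA-treated roots, 30.2 and 23.9 in untreated roots at 120 min and 23.8 and 36.7 at 0 min. These genes, too, were lowest on GA-treated replicate 1, and 228 of the 7450 candidates had an r above 0.9 with GID1B.

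For GID1A the closest were AT5G06410 (r of 0.9996), AT4G38660 (0.994) and UGT71C5, a glucosyltransferase of abscisic acid (0.993). UGT71C5 read 38.35 and 78.2 in GA-treated roots, 63.45 and 64.8 in untreated roots at 120 min and 51.4 and 82.7 at 0 min. For GID1C they were AT5G04600 (0.990), AT3G52230 (0.989) and AT5G56240 (0.987). For SLY1 they were AT3G14240 (0.990), AT5G19440 (0.985) and AT3G18050 (0.982). For SLY2 they were AT3G45850 (0.992), UPP, a uracil phosphoribosyltransferase (0.990), and AT4G23820 (0.982), and 38 of the 7450 candidates had an r above 0.9 with SLY2, the fewest of the 5 genes.

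Around the receptors and F-box genes, 8 lists of gibberellin, DELLA, SCF ligase, F-box and carboxylesterase genes held 73 further genes. Of these 10 had a named probe set and 6 were tested, while DELLA proteins, gibberellin biosynthesis, gibberellin inactivation and F-box proteins of other pathways had none, and are not analysed here. In limma 0 of the 6 passed in any of the 3 comparisons, with 0 at an unadjusted p under 0.05. Their median log2 difference was -0.04 for GA-treated against untreated roots at 120 min, -0.23 between untreated roots at 120 and 0 min and -0.20 between GA-treated roots and untreated roots at 0 min, against 0.01, -0.02 and -0.01 for all tested probe sets.

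SPY, the O-fucosyltransferase that modifies DELLA proteins, read 80.5 and 124 in GA-treated roots, 106 and 113 in untreated roots at 120 min and 93.0 and 130 at 0 min. SEC, the O-GlcNAc transferase related to SPY, read 74.4 and 104 in GA-treated roots, 93.7 and 84.9 in untreated roots at 120 min and 104 and 110 at 0 min. Both had treated arrays on either side of the untreated arrays at 120 min, from 80.5 to 124 for SPY and from 74.4 to 104 for SEC. XERICO, a RING finger gene raised by DELLA proteins, read 134 and 196.5 in GA-treated roots, 219 and 130 in untreated roots at 120 min and 246 and 242 at 0 min. Its arrays at 120 min, treated or not, lay below both arrays at 0 min. Of all tested probe sets 15.8% did so for the untreated and 15% for the treated arrays, and the share with both was not counted. AT5G50915 (BHLH137), of the same list as XERICO but below the filter, read 40.3 and 18.1 in GA-treated roots. It read 13.5 and 16.5 in untreated roots at 120 min and 32.25 and 22.75 at 0 min.

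CSN5B, a subunit of the COP9 signalosome that removes the NEDD8/RUB tag from cullins, read 76.4 and 54.25 in GA-treated roots, 69.9 and 53.6 in untreated roots at 120 min and 84.6 and 71.5 at 0 min. Here GA-treated replicate 1 was above replicate 2, as for AT5G50915 and unlike in the 5 receptor and F-box genes. Of the carboxylesterases, the enzyme family from which the GID1 receptors derive, CXE20 read 67.2 and 78.2 in GA-treated roots, 70.95 and 69.3 in untreated roots at 120 min and 77.7 and 92.2 at 0 min. CXE18 read 36.0 and 51.0 in GA-treated roots, 52.3 and 80.8 in untreated roots at 120 min and 35.4 and 51.85 at 0 min. GA-treated CXE18 lay below both untreated arrays at 120 min, as treated arrays did for 10.3% of tested probe sets. Its log2 difference of -0.46 did not pass. AT1G68620 (CXE6), below the filter, read 3.67 and 27.5 in GA-treated roots, 1.04 and 3.95 in untreated roots at 120 min and 2.76 and 0.928 at 0 min.

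**Figure D5:**
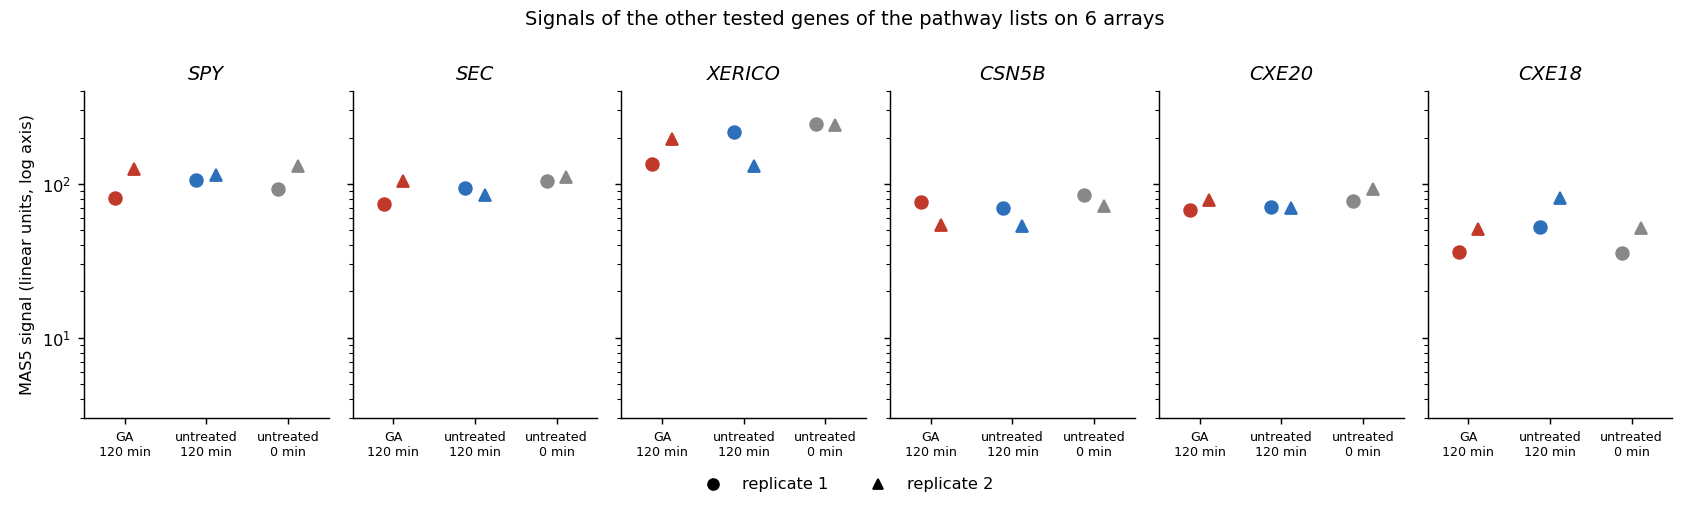
MAS5 signal (log axis) of the 6 other tested genes of the pathway lists on each array, with groups, colours and symbols as for the receptor genes. On the GA-treated arrays the 6 genes lie between 36.0 (CXE18) and 196.5 (XERICO).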

How the data were processed

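Transcripts were measured in 3 groups of 2 arrays, taken with their replicate numbers from the sample titles. The authors deposited 1 linear intensity, the MAS5 signal, for each probe set. The submitters' processing notes list MAS5 and GCOS and give no version or role for either. The trimmed mean of the deposited intensity, without the lowest and highest 2%, was 100 on every array. Detection calls and probe sequences were not used here, and no genome build is given in the sources used here. The number of arrays limits the precision.

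Signals were taken to log2(signal + 16) and filtered as described above. Genes were named with the 2016 annotation of the platform, and symbols were brought up to date by identifier from RefSeq TAIR10.1 (names only). Of 22746 probe sets 13513 matched 1 gene, 503 several and 8730 none, and 13436 of the first were found in RefSeq. Groups were fitted together with limma 3.58.1 in R 4.3.3 (eBayes with a trend, 3 residual and 5.8 prior degrees of freedom), two-sided, with Benjamini-Hochberg adjustment over the 13647 tested probe sets at 0.05. An exact permutation of 2 against 2 arrays cannot go below p = 0.333 and was not used. The fit was tested on simulated data. The members and lists were chosen with earlier results of these data known. Named were all members, up to 4 of the brightest genes of each pathway list and the 3 genes most like each member. Alternatives were another pseudocount, other filters, quantile normalization, median centring, no trend, the replicate number as a block and leaving out each array.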

Additional observations from a re-analysis of the deposited data

How the results depend on the processing

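The count of tested genes passing stayed at 0 of GID1A, GID1B and SLY1 in all 3 comparisons under every alternative run. With GID1C and SLY2 fitted without a filter it was 0 of 5. With all 6 arrays, the 3 genes kept the sign of their log2 difference with the other pseudocount, quantile normalization and median centring. Another filter, no trend or the replicate block leaves this difference as it is, so these settings could not turn its sign. GID1A lay below the filter at the 60th percentile. With a pseudocount of 1 GID1B differed by -1.29, -0.49 and -1.78 in the 3 comparisons, as its signal of 4.87 then lies further from the others. Leaving out an array turned 8 values. For GA-treated against untreated roots at 120 min the differences then ranged from -0.81 to 0.29 for GID1A, -2.29 to 1.18 for GID1B and -0.52 to 0.38 for SLY1, which was also positive (0.082) without untreated replicate 1. Between untreated roots at 120 and 0 min they ranged from -0.44 to 0.24 for GID1A, -0.82 to -0.04 for GID1B and -0.45 to -0.14 for SLY1. Between GA-treated roots and untreated roots at 0 min they ranged from -0.92 to 0.19 for GID1A, -2.72 to 0.745 for GID1B and -0.81 to 0.085 for SLY1. A group reduced to 1 array is assumed to vary like the others. Over all tested probe sets 0 passed, except 7 between GA-treated roots and untreated roots at 0 min without GA-treated replicate 2. The replicate differences of the groups correlated at 0.307 to 0.36 across probe sets, but the labels do not say what the number marks. With the replicate number as a block 0 probe sets passed in each comparison (lowest adjusted p 0.998, 0.716 and 0.563), and the unadjusted p of GID1B was 0.436, 0.543 and 0.181. Signals near 16 or below, such as GID1B on GA-treated replicate 1, are close to the pseudocount.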
